A study of Mus musculus with 26 samples.

Results

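The chromatin of D2 medium spiny neurons after cocaine relapse was compared with that of D2 neurons at baseline, through the list of accessible regions (peaks) that the authors deposited for each group. Members were chosen by position alone, on chromosomes 1 to 19 and X. A CC-only peak lay on the relapse list (CC) with no baseline (SS) peak within 1 kb, an SS-only peak was the reverse, and a shared peak overlapped a peak of the other list by at least 1 bp. There were 11588 CC-only and 5307 SS-only peaks, with 54771 relapse peaks and 55246 baseline peaks shared, among the 130220 peaks of both lists and the 399299 peaks of all 8 lists of the series. The remaining 2065 relapse and 1243 baseline peaks lay near a peak of the other list without touching it.

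The study used ATAC-seq, in which a transposase cuts and tags open DNA, on nuclei of mouse D1 and D2 medium spiny neurons (MSN). Brain is the labelled tissue, and the title of the series names the nucleus accumbens. The 4 states were a baseline (SS), a relapse to cocaine (CC), acute cocaine (SC), and chronic cocaine with a prolonged withdrawal after it (CS). The relapse list of D2 neurons came from 1 library and the baseline list from 2; the other 6 lists hold 1 to 8 libraries each. The labels used here give no strain, genotype, sex, age, dose, time or way of sorting the nuclei, and do not say whether nuclei of several animals were pooled. Each group is 1 list, so nothing below has a replicate error or a test between groups, and the intervals given are 95% Clopper-Pearson ones for counting error alone.

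Medium spiny neurons are the output neurons of the striatum and nucleus accumbens. D1 cells carry the dopamine receptor that raises cyclic AMP, and D2 cells carry the one that lowers it. Cocaine blocks the reuptake of dopamine and so acts on both. Open promoters are found at most active genes, whereas open regions inside genes and between them are often enhancers and are more specific to a cell type or a state.

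The D2 relapse list held 68424 peaks over 39.2 Mb and the baseline list 61796 peaks over 34.6 Mb. Fold enrichment, the height of a peak over the local background of the peak caller, stood on a background of about 5.85 reads in the relapse list and 6.14 reads in the baseline list, so the lists had similar depth by this measure. The D2 markers Drd2 and Adora2a had peaks in both lists, but so did the D1 markers Drd1 and Tac1, and peak presence alone therefore did not separate the neuron types. Of 63 marker genes of glia, vessels, interneurons and cortical neurons, 34 had a peak in either list and 29 had none. Those genes held 65 relapse and 67 baseline peaks, of which 9 were CC-only (13.8%) and 11 were SS-only (16.4%), beside 16.1% and 8.07% over the peaks of all gene names. Their part in the results below was not tested.

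Most accessible regions of D2 neurons were found in both states. Of the relapse peaks, 80.0% (79.7 to 80.3%) overlapped a baseline peak, and 89.4% (89.2 to 89.6%) of the baseline peaks overlapped a relapse peak. CC-only peaks made up 16.9% (16.7 to 17.2%) of the relapse list, and SS-only peaks 8.59% (8.37 to 8.81%) of the baseline list. The relapse list was the longer of them. When the relapse list was reduced to its 61796 strongest peaks by q-value, 7997 CC-only and 7379 SS-only peaks were left. With a q-value of at most 1e-05 in both lists, which kept 60562 relapse and 53081 baseline peaks, there were 10804 CC-only and 3589 SS-only peaks. The size of the excess therefore depended on how the lists were cut.

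Peaks of only 1 list were low and narrow. The median fold enrichment of CC-only peaks was 3.41 against 4.89 for shared relapse peaks, and that of SS-only peaks was 3.22 against 4.62 for shared baseline peaks. Their median width was 282 bp for CC-only peaks and 265 bp for SS-only peaks, against 602 and 578 bp for the shared peaks. Of the relapse peaks with a fold of 2.5 to 3, 41.6% were CC-only; at a fold of 5 to 6 the share was 1.86%, and at a fold of 7 or more it was 0 of 9301, which allows at most 0.0397% by the exact interval. The same shares in the baseline list were 30.8%, 0.135% and 0.0116%. At every step of fold the share was higher on the relapse side up to a fold of 7, with intervals that did not overlap below a fold of 6. Folds are not scaled between the lists, so a like fold is not a like height. Among the 20000 strongest peaks of each list by q-value, a cut chosen after the data were seen, only 2 CC-only and 4 SS-only peaks were found.

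**Figure D1:**
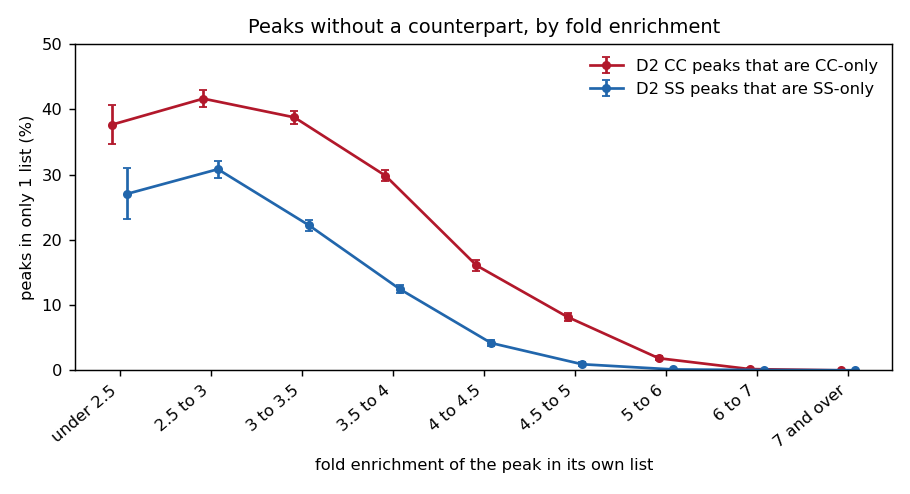
Share of D2 relapse (CC) peaks that are CC-only and of D2 baseline (SS) peaks that are SS-only, in percent, by the fold enrichment of the peak in its own list; bars are exact 95% intervals for counting error. The CC share falls from 41.6% at a fold of 2.5 to 3 to 1.86% at 5 to 6, and the SS share from 30.8% to 0.135%.

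The 1 kb limit was not placed at a break in the data. In the first 1 kb beyond it lay 745 CC-only and 403 SS-only peaks. Relapse peaks just inside the limit had a median fold of 2.99 and those just outside one of 3.01; the baseline values were 2.97 and 3.02. Most of these peaks were far from any counterpart, with a median gap of 11.5 kb for CC-only peaks, and 54.8% of them were over 10 kb away.

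Peaks of only 1 list lay mainly outside promoters, as did shared peaks, but promoters held a smaller share of them than of shared peaks. The authors' classes put 48.8% of CC-only peaks and 45.0% of SS-only peaks in gene bodies, against 35.5% of the shared relapse peaks. The 3 promoter classes, which reach to 3 kb from a gene start, held 15.5% (14.8 to 16.1%) of the CC-only peaks, 18.7% (17.6 to 19.7%) of the SS-only peaks and 32.7% of the shared relapse peaks. The difference from shared peaks was concentrated in the proximal promoter, within 250 bp of the start: 4.06% of CC-only, 6.43% of SS-only and 21.0% of shared relapse peaks. Counted the other way, 3.87% of the relapse peaks in proximal promoters were CC-only, against 12.2% from 250 bp to 1 kb, 19.5% from 1 to 3 kb, 21.9% in gene bodies and 18.6% between genes. In the baseline list the SS-only shares of these classes were 2.82%, 7.06%, 10.4%, 10.7% and 9.66%. Proximal promoter peaks were also the highest, with a median fold of 5.86 in the relapse list against 4.09 for gene-body peaks. D2 acute cocaine against the same baseline list gave similar promoter shares. They were 14.4% of the peaks only in acute cocaine and 19.5% of those only at baseline. How much of the class difference goes with peak height was not tested.

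**Figure D2:**
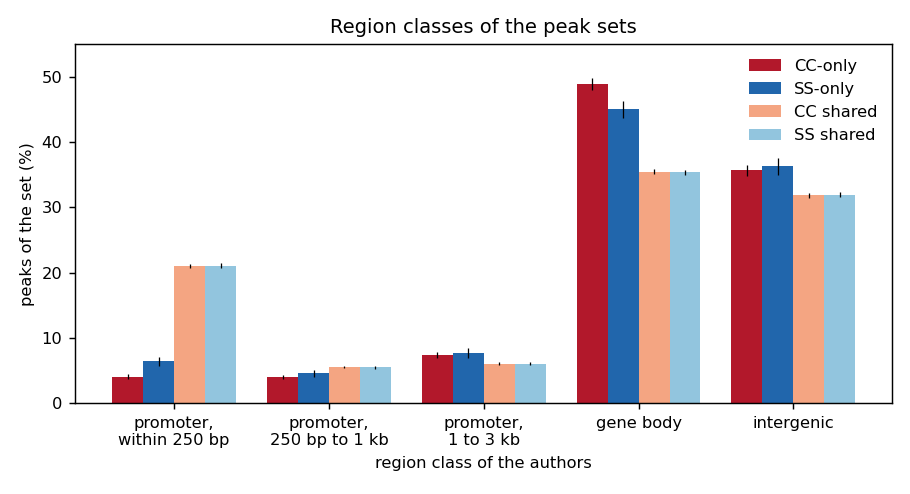
Share of each peak set, in percent, in the authors' region classes; error bars are exact 95% intervals for counting error. Proximal promoters hold 21.0% of the shared relapse peaks but 4.06% of CC-only and 6.43% of SS-only peaks, and gene bodies hold 48.8% of CC-only peaks.

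Within promoters, the peaks of only 1 list lay farther from the gene start. The median distance was 924 bp for CC-only, 628 bp for SS-only and 122 bp for shared relapse promoter peaks, and the share upstream of the start was 49.1%, 46.8% and 49.1%. In gene bodies the median distance to the start was 40.3 kb for CC-only, 40.5 kb for SS-only and 43.1 kb for shared relapse peaks, so the position along genes hardly differed. Some genes with such a promoter peak also had one in the other list. Of 622 protein-coding genes with a CC-only peak within 1 kb of the start, 307 had another peak within 1 kb in the baseline list. For SS-only peaks the counts were 425 and 159, with the other peak in the relapse list.

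The promoters under CC-only peaks had a different base composition from those under SS-only and shared peaks. Promoters rich in CG dinucleotides (CpG islands) are typically open in many cell types, and promoters poor in them more often serve tissue-specific genes. RefSeq windows of 300 bases, from 250 before to 50 after the start (build GRCm38.p6), were used; 293 windows lay under a CC-only peak and no baseline peak, 222 under an SS-only peak and no relapse peak, and 12124 under a shared peak. The median content of G and C was 54.7% (quartiles 48.7 and 60.7%) under CC-only peaks, 63.3% (54.7 and 69.7%) under SS-only peaks and 62.3% under shared peaks, against 53.0% over all 32585 windows. The median number of CG dinucleotides per window was 10, 20 and 23 in these sets and 7 over all windows. At a matched fold of 3 to 4, the medians were 53.3% and 8 for 153 CC-only windows, 63.5% and 18 for 130 SS-only windows, and 61.0% and 19 for shared relapse windows. With both lists at equal length, 192 CC-only windows had a median of 53.7% and 370 SS-only windows 63.3%; there the SS-only windows were the more numerous. The acute cocaine list of D2 neurons was set against the same baseline list, whatever the other lists held. The median was 54.7% for 145 windows under an acute cocaine peak with no baseline peak within 1 kb. It was 60% for 442 windows under a baseline peak with no acute cocaine peak within 1 kb.

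**Figure D3:**
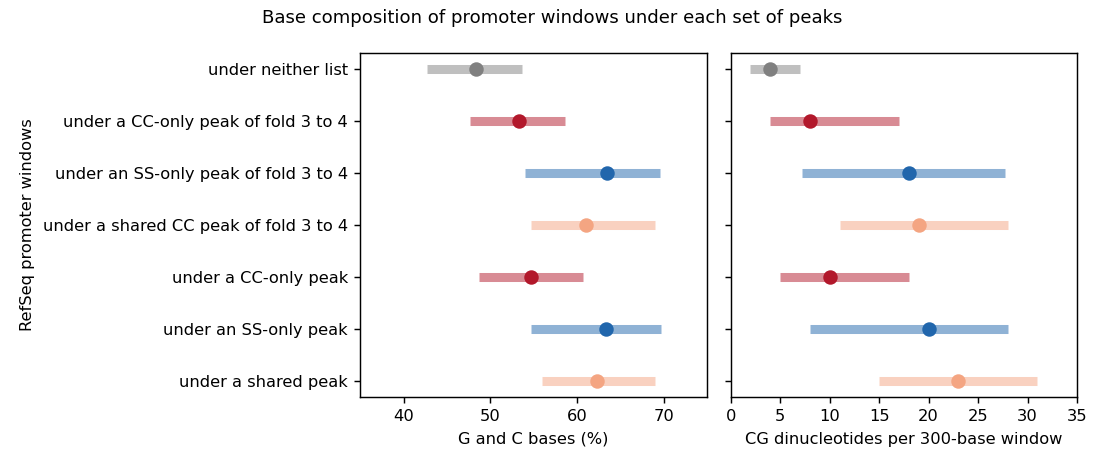
Content of G and C bases (percent, left) and number of CG dinucleotides (right) in 300-base RefSeq promoter windows under each set of peaks; dots are medians and bars run from the lower to the upper quartile. Windows under CC-only peaks have a median of 54.7% and those under SS-only peaks 63.3%; the order is the same among peaks of fold 3 to 4.

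The windows below are all those found under the named promoter peaks, 3 of each set, and show how single promoters vary around these medians. They come from RefSeq on GRCm38.p6, written 5′ to 3′ on the strand of the gene. Capitals mark matches, on either strand, to a GC box with the letters GGGCGG, the CCAAT box with just the letters of its name, the core of a cyclic AMP response element with the letters TGACGT, an AP-1 site with the letters TGANTCA, or an E-box with the letters CACGTG; none of these motifs contains another. Slc37a2, a sugar phosphate exchanger, is on the reverse strand at chr9:37255689-37255988, and its window is 52.7% G and C with 7 CG dinucleotides. The window under the Tceal7 peak, chrX:136214669-136214968 on the forward strand, is assigned by RefSeq to LOC115489115 and has 54.7% and 8. That of 4930522L14Rik, on the reverse strand at chr5:109751538-109751837, has 53.3% and 13, and 117 of its 300 bases lay under the peak. These 3 lay under CC-only peaks. Cdkn2c, an inhibitor of cyclin-dependent kinases, is on the reverse strand at chr4:109666707-109667006 with 73.3% and 33. Cbx5, which encodes the heterochromatin protein HP1 alpha, is on the reverse strand at chr15:103215303-103215602 with 54.7% and 8, the same as the window under the Tceal7 peak. Ifnlr1, a subunit of the interferon lambda receptor, is on the forward strand at chr4:135686207-135686506 with 61.0% and 18. The last 3 lay under SS-only peaks.
Slc37a2: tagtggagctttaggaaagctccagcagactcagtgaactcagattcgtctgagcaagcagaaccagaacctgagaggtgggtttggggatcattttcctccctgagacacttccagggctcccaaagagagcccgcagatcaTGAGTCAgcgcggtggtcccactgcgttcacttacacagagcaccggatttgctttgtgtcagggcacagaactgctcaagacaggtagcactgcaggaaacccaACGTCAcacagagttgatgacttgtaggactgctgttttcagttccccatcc
Tceal7: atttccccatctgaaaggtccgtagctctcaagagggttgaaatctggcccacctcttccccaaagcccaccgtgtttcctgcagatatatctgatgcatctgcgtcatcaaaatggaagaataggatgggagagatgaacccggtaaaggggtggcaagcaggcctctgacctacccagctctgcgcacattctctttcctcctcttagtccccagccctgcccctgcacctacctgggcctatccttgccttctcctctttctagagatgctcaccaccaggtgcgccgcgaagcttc
4930522L14Rik: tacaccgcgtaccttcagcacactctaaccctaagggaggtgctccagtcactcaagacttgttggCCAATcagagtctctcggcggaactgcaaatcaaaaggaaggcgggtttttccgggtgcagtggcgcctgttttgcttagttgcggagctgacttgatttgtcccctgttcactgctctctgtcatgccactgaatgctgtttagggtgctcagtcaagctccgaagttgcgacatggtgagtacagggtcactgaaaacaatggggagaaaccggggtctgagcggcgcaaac
Cdkn2c: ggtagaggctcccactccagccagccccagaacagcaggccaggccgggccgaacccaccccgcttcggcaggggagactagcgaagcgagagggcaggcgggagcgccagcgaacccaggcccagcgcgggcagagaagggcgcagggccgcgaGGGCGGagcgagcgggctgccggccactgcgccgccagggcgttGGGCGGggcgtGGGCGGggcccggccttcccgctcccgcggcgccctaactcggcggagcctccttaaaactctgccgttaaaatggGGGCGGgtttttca
Cbx5: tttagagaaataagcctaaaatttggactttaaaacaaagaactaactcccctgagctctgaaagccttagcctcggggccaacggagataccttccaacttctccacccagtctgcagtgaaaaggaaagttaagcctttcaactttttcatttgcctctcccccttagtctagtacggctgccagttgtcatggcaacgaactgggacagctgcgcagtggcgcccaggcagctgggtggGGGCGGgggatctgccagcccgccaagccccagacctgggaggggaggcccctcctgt
Ifnlr1: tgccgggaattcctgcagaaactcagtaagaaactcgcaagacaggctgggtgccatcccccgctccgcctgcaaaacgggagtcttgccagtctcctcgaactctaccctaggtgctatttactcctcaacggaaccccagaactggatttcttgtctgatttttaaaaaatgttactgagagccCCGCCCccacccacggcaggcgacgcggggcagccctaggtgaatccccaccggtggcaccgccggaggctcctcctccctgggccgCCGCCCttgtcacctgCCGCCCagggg

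A GC box was found in 0 of the 3 CC-only windows, in 4 places in the Cdkn2c window, in 1 in the Cbx5 window and in 3 in the Ifnlr1 window, and the 4930522L14Rik window held 1 CCAAT box. By base composition the Cbx5 window was like the CC-only ones. The Slc37a2 window held 1 AP-1 site and 1 core of a cyclic AMP response element. Over the sets, a GC box was present in 39.9% of CC-only, 63.5% of SS-only and 67.4% of shared windows, against 35.9% of all windows. An AP-1 site was present in 10.6%, 6.31% and 4.26% of these sets, in 7.85% of all windows and in 10.1% of 19510 windows under neither list. The CC-only share was thus near that of windows without a peak. The response element core was in 4.78% of CC-only, 5.41% of SS-only and 12.7% of shared windows, against 7.56% of all. A CCAAT box was in 31.7%, 30.6% and 38.0%, against 37.6% of all, and an E-box in 9.90%, 12.2% and 10.6%, against 7.20% of all. Under neither list, a GC box was in 15.7%, the response element core in 4.48%, a CCAAT box in 37.6% and an E-box in 5.00%. The letters searched are partly set by base composition, and a match is not evidence of binding.

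The CC-only promoter peak with the highest fold belonged to Trim31, a ubiquitin ligase. It lay at chr17:36899913-36900460 (mm10), 2068 bp into the gene side of the start, had a fold of 5.98, and was also found in 5 of the other 6 lists, all but D1 baseline. The peak at Tceal7, an X-linked transcription elongation factor A-like gene, lay at chrX:136214611-136215137, had a fold of 5.69 and was found in 4 other lists. Fam71b followed with a fold of 5.54 and 2 lists. The Slc37a2 peak, chr9:37255680-37256012, had a fold of 5.40 and was found elsewhere only in D1 relapse. Nim1k, a kinase gene, had a fold of 5.22, and 4930522L14Rik one of 5.11.

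Of the SS-only promoter peaks, that of H60b, a ligand of the natural killer receptor NKG2D, had the highest fold, 5.46. Cdkn2c followed with 5.32 (chr4:109666547-109667192). The peak of Cbx5 had a fold of 5.04 (chr15:103215139-103215656). The Cdkn2c and Cbx5 peaks were each found in 5 other lists, including acute cocaine and withdrawal in D2 neurons; D1 baseline was the list that lacked them. Their absence was thus limited, among the D2 lists, to relapse. Rac2, a small GTPase of blood cells, and Ifnlr1 both had a fold of 4.76 and were in none of the D2 cocaine lists, and Invs had one of 4.62.

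In gene bodies the highest CC-only folds were at Ccser1 (6.32), Pde1c (6.13), Cdyl (6.09), Elp4 (5.98), Pcdh15 (5.84) and Agbl4 (5.84). Pde1c is a phosphodiesterase that degrades cyclic nucleotides and is activated by calcium and calmodulin, Cdyl a chromatin corepressor, and Pcdh15 a cadherin of sensory hair cells. All 6 of these peaks were also in the D2 acute cocaine list, which held 30.0% of all CC-only peaks. None was in the D2 withdrawal list, which held only 2.37% of all CC-only peaks. The SS-only gene-body peaks with the highest folds lay in Thsd7a (5.46), Acss1 (5.32), Fam196a (5.18), Cd46 (4.90), Lpp (4.90) and Mef2c (4.86). Acss1 makes acetyl-CoA from acetate in mitochondria, and Mef2c is an activity-regulated transcription factor. The Thsd7a and Lpp peaks were in none of the other 6 lists, and the Acss1, Fam196a, Cd46 and Mef2c peaks were in D2 acute cocaine. Of all SS-only peaks, 40.9% were in none of these lists and 24.0% in D2 acute cocaine.

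Between genes, the CC-only peak with the highest fold (6.94) lay at chr5:82319596-82320210, 492 kb from Adgrl3, an adhesion receptor of synapses and the nearest RefSeq protein-coding gene. The next had folds of 6.57 (59.2 kb from Olfr1408), 6.27 (781 kb from Gm597) and 6.27 (31.3 kb from Kctd3). All 4 were in D2 acute cocaine, beside 30.0% of all CC-only peaks. The SS-only peak with the highest fold, 7.09, was at chr10:96077371-96077967, 31.9 kb from Eea1. It was in all other lists but D2 acute cocaine. The next had folds of 6.30 (63.6 kb from Fam171a1), 6.30 and 6.02 (12.7 and 13.04 kb from Abcb11), each in 5 other lists. The peaks near Abcb11, at chr2:69355327-69355543 and chr2:69355653-69355882, were neighbours and are not separate places in the genome. The deposited tables name no gene for intergenic peaks, so neighbours are given only for position.

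Peaks of only 1 D2 list were found in the other lists less often than shared peaks. Of CC-only peaks, 30.0% (29.2 to 30.9%) were found in D2 acute cocaine, against 24.0% (22.8 to 25.2%) of SS-only peaks and 89.1% of shared relapse peaks. In D2 withdrawal, a list of 27898 peaks, the shares were 2.37%, 4.11% and 42.7%. D1 relapse, the longest list with 77070 peaks, held 44.0% (43.1 to 44.9%) of CC-only and 46.1% (44.8 to 47.5%) of SS-only peaks, so a peak found in D2 neurons only after relapse was no more often in D1 relapse than one found only at baseline. D1 withdrawal held 14.7% and 20.1%, D1 acute cocaine 3.06% and 4.75%, and D1 baseline 2.06% and 2.07%.

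At a matched fold of 3 to 4 the shares in D2 acute cocaine were 28.0% for CC-only, 25.4% for SS-only and 73.1% for shared relapse peaks, and in D1 relapse 43.3%, 48.2% and 77.0%. The gap between the peaks of only 1 list and shared peaks was therefore smaller at matched fold but remained in both lists. Long lists hold more of every set, and the lists differ in length from 27898 to 77070 peaks.

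**Figure D4:**
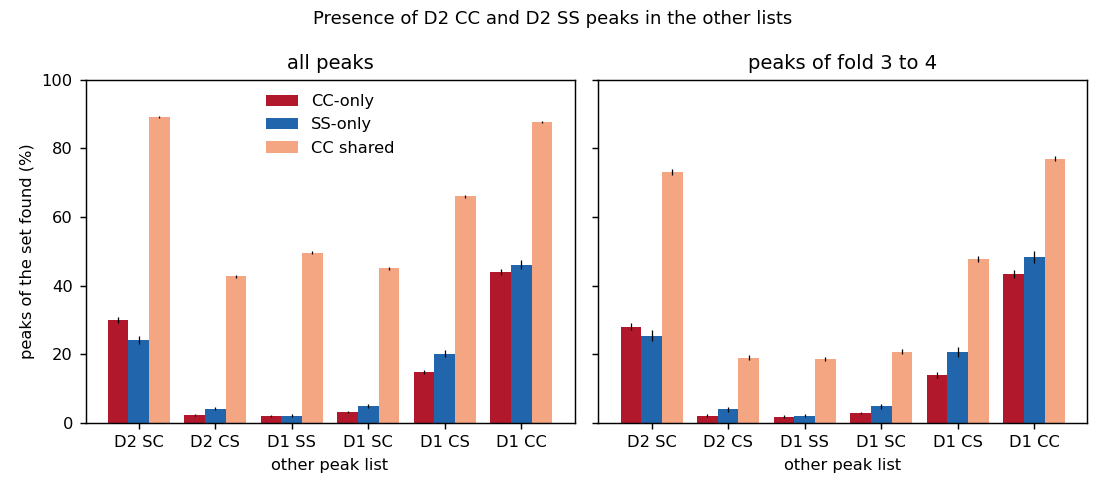
Share of CC-only, SS-only and shared relapse peaks, in percent, that overlap a peak of each of the other 6 lists, for all peaks (left) and peaks of fold 3 to 4 (right); error bars are exact 95% intervals for counting error. D1 CC holds 44.0% of CC-only and 46.1% of SS-only peaks, and 87.7% of shared relapse peaks.

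In none of the other 6 lists were 4749 CC-only peaks (41.0%) and 2173 SS-only peaks (40.9%). Only 4 CC-only peaks (0.0345%) and 4 SS-only peaks (0.0754%) were in all 6. A CC-only peak in every other cocaine list and not in D1 baseline would be present in all cocaine states of both cell types and absent at baseline in both. There were 33 such peaks, 0.285% of the CC-only peaks. The same pattern in the other lists was found for 32 SS-only peaks, a larger share of their set (0.603%). Among the 33 were those of Trim31, Snx29, which encodes a sorting nexin, and Abcb1b, a multidrug transporter. In both D2 acute cocaine and D2 withdrawal were 121 CC-only peaks (1.04%), whereas 7955 (68.6%) were in neither. The 5 of highest fold in both lists were at Trim31, Tceal7, Snx29 (5.25), Pnldc1 (5.12) and Abcb1b (5.11), and the Pnldc1 peak was in all other 6 lists. D1 relapse alone held 2142 CC-only peaks (18.5%) and 1010 SS-only peaks (19.03%). The CC-only peaks with the highest fold in this class were at Lypd1 (5.75), a modulator of nicotinic receptors, Gm38584 (5.54), AC160061.1 (5.40), Slc37a2 (5.40) and Syn3 (5.33), a synapsin of synaptic vesicles. Promoter peaks were more frequent among those found in more lists: 12.3% of CC-only peaks in no other list, 16.0% of those in 1 to 2 and 28.1% of those in 3 or more were promoter peaks. The SS-only shares were 13.3%, 19.6% and 35.5%.

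Across all 18356 gene names with a peak in either list, 4539 (24.7%) had at least 1 CC-only peak and 2592 (14.1%) at least 1 SS-only peak, and 1098 had both. A relapse peak but no baseline peak was found for 1380 names (7.52%), 653 of them protein-coding, and the reverse for 879 (4.79%), 485 of them protein-coding. At equal list length these counts were 1029 and 1194, so the direction turned. Of the 1380 names, 248 had a peak shared in position but assigned to another gene in the baseline list, as had 267 of the 879. Genes with such peaks were long: the median length was 69.1 kb for genes with a CC-only peak and 82.3 kb for those with an SS-only peak, against 17.8 kb for genes with neither.

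The genes with the most CC-only peaks were large neuronal genes. Celf2, an RNA-binding splicing regulator, had 17 CC-only and 0 SS-only peaks, with 39 peaks at relapse and 20 at baseline. Ptprn2, a protein of dense-core vesicles, had 17 CC-only and 2 SS-only peaks. The scaffold gene Magi2 had 15 and 4, the netrin-G ligand Lrrc4c 14 and 2, the neurexin Nrxn3 14 and 4, and Ccser1 13 and 6. The 17 Celf2 peaks had folds of 2.52 to 3.89, and 10 of them were in no other list. For SS-only peaks the leading genes were the cell adhesion genes Lsamp (9 SS-only and 8 CC-only), Ntm (7 and 12) and Cntn4 (6 and 8), with the postsynaptic Dlgap2 (7 and 9), Gm20388 (7 and 6) and Ccser1. Each of these SS-only leaders also had CC-only peaks.

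Gene lists were read against all gene-body peaks, of which 21.9% were CC-only in the relapse list and 10.7% SS-only in the baseline list. Of the D2 MSN markers, 5 of 10 with a peak had a CC-only peak (50%) and 1 an SS-only peak (10%). Over all gene names the shares were 24.7% and 14.1%. Of the 42 relapse gene-body peaks of the D2 markers, 15 were CC-only (35.7%, 21.6 to 52.0%). Drd2, the receptor that defines these cells, had 10 relapse and 6 baseline peaks. Each baseline peak of Drd2 overlapped a relapse peak, among them the promoter peak, with a fold of 3.22 on the relapse list and 3.58 on the baseline list, which are not on a common scale. Its 3 CC-only peaks lay 27.03, 34.3 and 38.3 kb into the gene with folds of 2.23, 2.17 and 2.13; 2 were also in D2 acute cocaine and 0 in any D1 list. The receptor-type phosphatase Ptprm had 8 CC-only and 3 SS-only peaks. Adora2a, Penk and Gpr6 had equal numbers of peaks in both lists (3, 2 and 2) and none in only 1 list.

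Of the D1 markers, 6 of 9 with a peak had a CC-only peak (66.7%), beside 24.7% of all gene names. Of the 53 relapse gene-body peaks of the D1 markers, 10 were CC-only (18.9%), beside 21.9% of all gene-body peaks. The promoter of Pdyn, the dynorphin precursor typical of D1 neurons, had a CC-only peak 110 bp upstream of the start with a fold of 3.21; it was in all 4 D1 lists and in no other D2 list. Genes of both neuron types held 37 CC-only peaks among 135 gene-body peaks (27.4%, 20.1 to 35.7%). Among them, the transcription factor Foxp1 had 10 CC-only and 0 SS-only peaks, the retinoic acid receptor Rarb 9 and 2, and the adenylyl cyclase Adcy5 6 and 1.

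Immediate-early genes respond to neuronal activity within minutes. Of 16 with a peak, 1 had a CC-only peak (6.25%) and 0 an SS-only peak, beside 24.7% and 14.1% of all gene names. Among the 32 relapse peaks of the immediate-early genes, 1 was CC-only (3.13%, 0.0791 to 16.2%), at Egr3 with a fold of 2.35. Fos and Arc had 2 peaks in each list, Fosb 3 at relapse and 2 at baseline, and Npas4 1 and 3. These genes are short, and all peaks under their names were in promoter classes, where 8.80% of all relapse peaks were CC-only and 5.10% of all baseline peaks SS-only, values within the intervals of this list. Of 16 delayed activity-regulated genes with a peak, 3 had a CC-only peak (18.75%) and 2 an SS-only peak (12.5%). Both shares were below the 24.7% and 14.1% of all gene names. The CC-only peaks were at Nptx2, Vgf and Dusp4, with folds of 2.78, 2.80 and 2.22. Bdnf, a growth factor of synaptic plasticity, had an SS-only peak 1305 bp from the start with a fold of 3.08, as had the kinase Plk2 in its gene body with 2.73; the proximal promoter peak of Bdnf was shared.

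Among the receptors of fast transmission, 17 of 22 glutamate receptor genes with a peak had a CC-only peak (77.3%) and 14 an SS-only peak (63.6%). All gene names together had 24.7% and 14.1%. Gene-body peaks of the glutamate receptor genes were CC-only in 25.3% (20.4 to 30.8%) and SS-only in 9.75% of cases. This was near the 21.9% and 10.7% of all gene-body peaks. The X-linked AMPA receptor subunit Gria3 had 13 relapse and 6 baseline peaks. Its 5 CC-only peaks had folds of 3.36 to 4.71, and 2 were in D2 acute cocaine and 0 in any D1 list. Gria1 had 7 CC-only and 2 SS-only peaks, the metabotropic Grm7 10 and 3, and the delta receptor Grid1 9 and 0. The NMDA receptor subunit Grin2b had 5 and 5, with 21 peaks in each list. Grin1, Grin2c, Grin2d and the presynaptic Grm4 went the other way, with 1, 1, 1 and 2 SS-only peaks and 0 CC-only peaks. GABA-A receptor genes had 21 CC-only among 71 gene-body peaks (29.6%, 19.3 to 41.6%). Gabrb2 had 6 CC-only peaks with folds of 2.80 to 4.33, 3 of them in D2 acute cocaine and 0 in any D1 list.

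Dopamine and cyclic AMP genes had 32 CC-only among 177 gene-body peaks (18.1%) and 18 SS-only among 162 (11.1%). Creb1, the cyclic AMP-responsive transcription factor, had 2 CC-only peaks with folds of 4.09 and 3.42, and the phosphodiesterase Pde4b had 7 CC-only and 3 SS-only peaks. The G protein gene Gnao1 had 4 and 5. Drd3 had 1 CC-only gene-body peak (fold 3.07), and the D1-class receptor Drd5 had 1 SS-only promoter peak (fold 3.08), its sole peak in either list. Of 28 voltage-gated channel genes, 23 had more peaks at relapse and 0 fewer. Of all 18356 gene names, 4806 had more, 2478 fewer and 11072 equal numbers, and the relapse list was the longer one. The CC-only share of the gene-body peaks of the channel genes, 23.6% (19.4 to 28.2%), was near the 21.9% of all genes. The potassium channel Kcnq5 had 11 CC-only and 2 SS-only peaks, Kcnma1 10 and 2, Kcnd2 7 and 0, and the calcium channel Cacna1c 7 and 1.

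Synaptic adhesion genes had 130 CC-only among 573 gene-body peaks (22.7%, 19.3 to 26.3%), with Tenm2 (12 CC-only and 5 SS-only), Adgrl3 (11 and 3) and Nlgn1 (10 and 2) as examples. Axon guidance genes had 86 among 331 (26.0%, 21.3 to 31.1%). The semaphorin Sema3c had 11 relapse and 5 baseline peaks, 6 of them CC-only with 4 in D2 acute cocaine. The ephrin receptor Epha5 had 6 CC-only peaks that were in no other list, and the netrin receptor Dcc had 7 CC-only and 6 SS-only peaks. In each list with at least 20 gene-body peaks on both sides, the intervals for CC-only and SS-only shares included the values of all gene-body peaks. At equal list length, where these are 16.7% and 15.0%, the D2 MSN markers had 9 CC-only of 36 (25.0%, 12.1 to 42.2%) and the glutamate receptors 56 of 257 (21.8%, 16.9 to 27.3%), the latter with an interval just above the value of all genes.

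**Figure D5:**
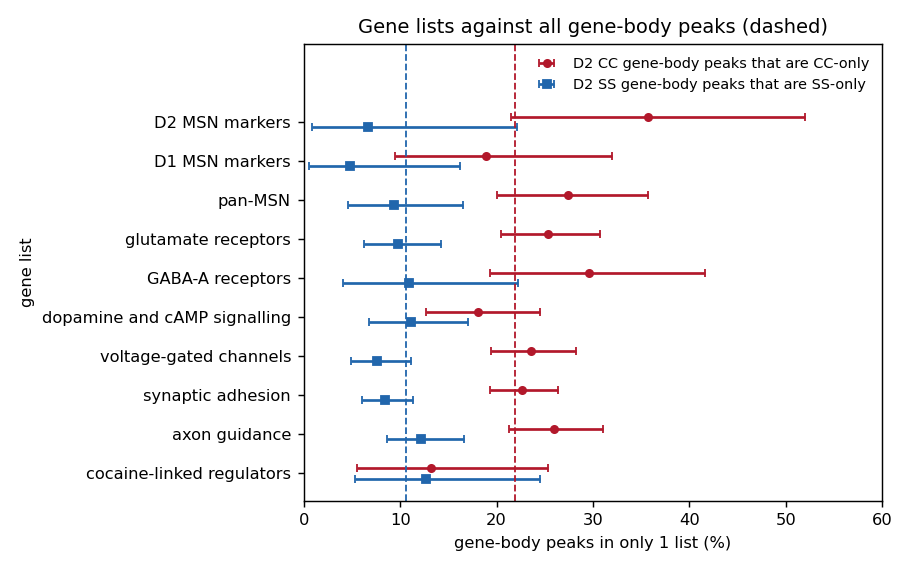
Share of gene-body peaks, in percent, that are CC-only (circles, of D2 relapse peaks) or SS-only (squares, of D2 baseline peaks) in gene lists with at least 20 such peaks in each list; bars are exact 95% intervals for counting error. Dashed lines mark all gene-body peaks, 21.9% and 10.7%, and each interval includes its line.

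Regulators linked to cocaine in earlier work had 14 CC-only among 102 relapse peaks (13.7%) and 8 SS-only among 95 baseline peaks (8.42%), near the 16.1% and 8.07% over the peaks of all gene names. The DNA demethylase Tet1 had 2 CC-only gene-body peaks with folds of 3.79 and 4.25, and the histone methyltransferase Ehmt2 1 with a fold of 3.31. Mef2c had 3 CC-only peaks with folds of 2.47 to 2.57 in the relapse list and the 1 SS-only peak named above. Of 11 genes for the histone variant H2A.Z and its exchange complexes, H2afv, Ep400 and Ino80 each had 1 CC-only peak (27.3% of the list, near the 24.7% of all gene names) and 0 had an SS-only peak. Of 16 housekeeping genes, 1 (Gapdh, 6.25% of the list) had a CC-only peak and 0 an SS-only peak. Among all gene names, 24.7% had a CC-only peak and 14.1% an SS-only peak. All peaks under the housekeeping names were in promoter classes, where 8.80% of all relapse and 5.10% of all baseline peaks were only in their list. Of the housekeeping peaks, 1 of 18 at relapse was CC-only (5.56%, 0.141 to 27.3%) and 0 of 19 at baseline SS-only (0 to 17.6%). These intervals include the promoter values.

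Chromosome X held 1882 relapse and 1586 baseline peaks, and 18.9% (17.2 to 20.8%) of its relapse peaks were CC-only, against 16.9% on the autosomes, where single chromosomes ranged from 14.6 to 18.2%; the interval of X includes the upper end of that range. Of its baseline peaks 5.55% (4.47 to 6.79%) were SS-only, below the autosomal range of 7.68 to 10.4%. At equal list length the X values were 15.1% (13.5 to 16.9%) CC-only and 8.26% (6.95 to 9.72%) SS-only, against 12.9% and 12.04% on autosomes. Counted the other way, as the share of a peak set that lay on X, CC-only peaks had 3.07% and SS-only peaks 1.66%. In D2 acute cocaine against the same baseline list, X held 2.84% of the peaks only in acute cocaine and 1.78% of those only at baseline. Of all peaks, X held 2.75% in the relapse list, 2.72% in the acute cocaine list and 2.57% in the baseline list. The sex of the animals is not given in the labels used here, and whether it differs between the libraries cannot be told. The Y chromosome had 20 relapse and 22 baseline peaks.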

How the data were processed

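ATAC-seq peak lists of D2 neurons after cocaine relapse (1 library) and at baseline (2 libraries) were compared, with 6 other lists for presence. The submitters' processing notes name cutadapt, HISAT, SAMtools, MACS2 and build mm10, without versions. Pooling of libraries ahead of peak calling is not described there. The deposited fold enrichment is a ratio over background and the deposited q-value of each peak, at most 0.0353 in these 2 lists, is linear; both are the authors' own values and are not scaled between lists, so the matched fold bins, the fold minimum of 5 and the q-value limit of 1e-05, which were applied to both lists, are not equal heights. Gene, class and distance are the authors' too. The lists hold no column per library, so there is no replicate error. Depth was read only as the background pileup that the steps between fold values imply (1 read is 1 step).

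Peaks on chromosomes 1 to 19 and X were used, which left out 63 relapse and 74 baseline peaks. Scripts used Python 3.11.15, numpy 2.4.6, pandas 2.3.3 and scipy 1.17.1, and the set rules were tested on simulated data (200 of 200 inserted peaks recovered). Equal length kept the relapse peaks with the lowest q-values. Promoter windows came from RefSeq. Gene lengths were matched for 83.7% of names. Genes were named by rule: highest fold per class and direction, most peaks per gene, highest fold in patterns across lists, and members of 20 gene lists. Intergenic peaks, which carry no gene name, were named by position, a choice made after the files were seen. For the lists, genes were picked out of their members as examples after values were seen. The members and lists were chosen with earlier results of these data known.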

Additional observations from a re-analysis of the deposited data

How the results depend on the processing

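No paired analysis was possible because each group is 1 peak list with no values per library, and leaving out a library could not be done for the same reason. Of relapse peaks, the share overlapping a baseline peak was 84.9% at equal list length, 69.2% with 50% reciprocal overlap, 83.1% within 1 kb, 99.1% at a fold of at least 5 and 99.99% among the strongest 20000 peaks, the last chosen after seeing the data. For baseline peaks the same settings gave 85.9%, 76.6%, 91.4%, 99.9% and 99.975%, and a q-value of at most 1e-05 in both lists gave 91.8%. At a fold of at least 5 there were 203 CC-only and 16 SS-only peaks, and among the strongest 20000 there were 2 and 4. The promoter share of CC-only peaks was 14.4% at equal length, 18.1% when any peak without a shared bp counted, and 7.88% at a fold of at least 5. That of SS-only peaks was 20.2% at equal length, 21.0% without a shared bp and 20.0% at the stricter q-value. At a fold of at least 5 it was 18.75% (3 of 16 peaks, 4.05 to 45.6%), an interval that includes the CC-only share, so no order can be read there. Gene names with a relapse peak of a fold of at least 5 and no baseline peak numbered 191, and the reverse 187. These counts follow the assigned names. Of the baseline peaks of that fold, 23463 of 23484 overlapped a relapse peak. Most of the 187 names thus had a peak shared in position that did not carry the name on the relapse list. On the relapse side 26033 of 26259 such peaks overlapped a baseline peak, and the 191 names were not split in this way. The autosomes alone moved none of the 8 results. Low peaks limit the comparison: a fold step of 1 read is 0.146 in the relapse list and 0.140 in the baseline list.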
